A study of Mus musculus with 45 samples.

Results

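The comparison concerned induced pluripotent stem cell (iPSC) lines made from skeletal muscle precursors (SMP) and from granulocytes of the same mouse. It used 6 of the 33 expression arrays in 1 table of log2 values, in a series of 45 arrays. The 3 SMP lines were clones 1 to 3 of mouse 1 at passage 6, and the 3 granulocyte lines were clones 1 to 3 of mouse 1 at passage 4, so passage differed by 2 between the groups. The 6 arrays were chosen by their labelled cell source, mouse and passage. The choice of arrays and of the gene lists below was made with earlier results of these data known. Per the labels, all lines were kept in embryonic stem cell medium with serum and leukaemia inhibitory factor (LIF) on irradiated mouse embryonic fibroblasts, and the feeders were depleted by preplating after trypsin. The sample labels give SMP only as an abbreviation, and they give neither the strain, age and sex of the mice nor the reprogramming factors and how they were switched on. Each group came from 1 mouse, so its 3 values measure the spread among clones and not among animals.

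Reprogramming turns a somatic cell into a pluripotent one by forced expression of a few transcription factors, of which Oct4 (Pou5f1), Sox2, Klf4 and Myc are the usual set. Skeletal muscle precursors, or satellite cells, are the Pax7-expressing stem cells that rebuild muscle fibres. Granulocytes are short-lived white blood cells of the myeloid lineage that carry enzymes such as myeloperoxidase and lysozyme in their granules. The question the design implies is which transcripts distinguish young pluripotent lines of these origins, and whether genes of the cell of origin are among them.

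Values were probe set levels on the log2 scale, with 1 probe set standing for each of 11807 genes. The median over genes lay between 6.88 and 6.98 on the 6 arrays and the lower quartile between 4.54 and 4.66, which serves below as the mark of a dim signal. Over all genes, SMP arrays correlated with granulocyte arrays at a mean of 0.973. Within groups, each SMP array correlated with the other SMP arrays at a mean of 0.995 to 0.996. Each granulocyte passage 4 array did so with the others of its group at 0.992 to 0.994. SMP arrays correlated with the T cell-derived passage 4 arrays of mouse 2 at a mean of 0.990, and granulocyte passage 4 arrays correlated with the B cell-derived passage 4 arrays of mouse 2 at a mean of 0.993. In the same limma fit, 6 genes passed the test between the SMP and the T cell lines, with 968 at an unadjusted p under 0.05. No gene passed it between the granulocyte and the B cell lines, with 157 at an unadjusted p under 0.05. The labels give no batch or date, so a processing batch and the cell of origin cannot be told apart. T cell minus B cell values of mouse 2 are given below for many of the gene lists and for some genes. Over all genes, 10.4% passed the test as higher and 4.8% as lower in that comparison.

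A gene was called where the adjusted p of limma's moderated test was under 0.05 after Benjamini-Hochberg adjustment over all 11807 genes. Between SMP and granulocyte lines 2562 genes were called, 21.7% of those tested. Of these, 1364 were higher in the SMP lines (11.6%) and 1198 were lower (10.1%). List counts below are to be read against these shares. The values of the 2 groups did not overlap in 2509 called genes (21.3%), but they also did not overlap in 6152 genes called or not (52.1%). A log2 difference of at least 1 was reached by 965 called genes (8.17%). The median difference over all genes was 0.06. The count was 1671 without SMP clone 2 and 1688 without SMP clone 3, and 4424 in a fit of the 6 arrays alone.

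**Figure D1:**
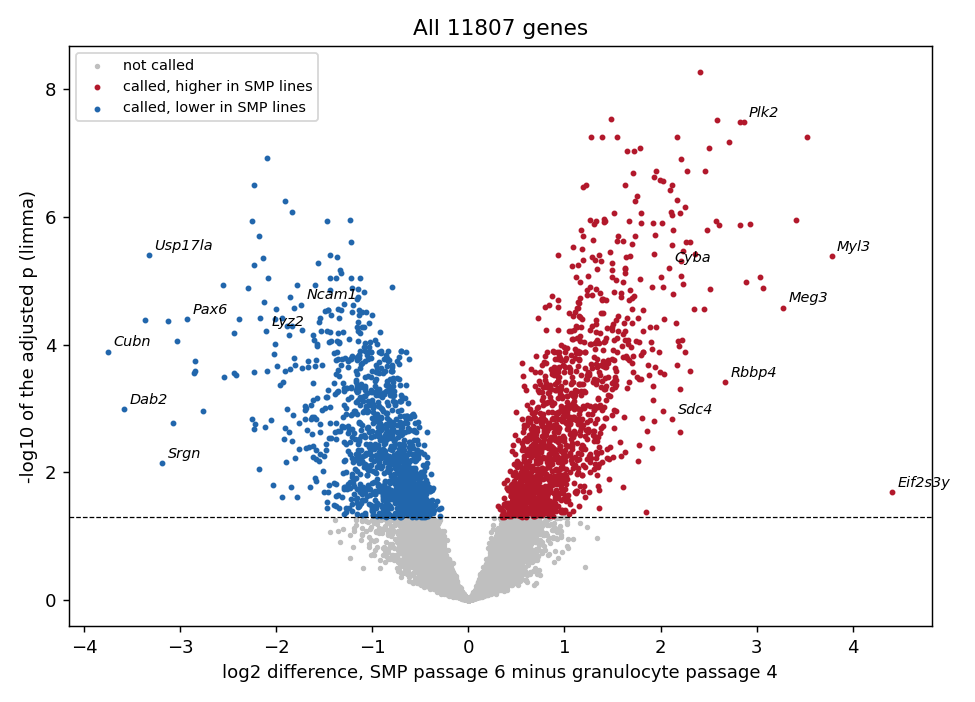
Log2 difference between SMP passage 6 and granulocyte passage 4 lines (x axis) against the negative log10 of limma's adjusted p (y axis) for each of 11807 genes; the dashed line marks an adjusted p of 0.05. The 1364 red points are called higher and the 1198 blue points called lower in the SMP lines.

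The genes named by size were the 15 largest called changes in each direction whose values did not overlap between the groups. Myl3, the essential light chain of slow and ventricular muscle myosin, had log2 values of 10.34, 10.96 and 10.91 in the SMP clones and 5.99, 6.54 and 8.33 in the granulocyte clones. Its difference was 3.78 ± 0.49 (SE; adjusted p = 4.1e-06), a 13.8-fold higher signal. The groups did not overlap, and granulocyte clone 3 stood nearest to the SMP lines. Adssl1, the muscle isozyme of adenylosuccinate synthase, showed the same order of clones. It measured 9.39, 9.82 and 9.77 in SMP lines against 5.36, 5.82 and 7.55 in granulocyte lines, a difference of 3.41 ± 0.40 (adjusted p = 1.1e-06). The adhesion protein Nectin4 was dim in all granulocyte clones, at 3.89 to 4.28, and measured 7.35 to 7.70 in SMP clones, a difference of 3.52 ± 0.33, and of 2.08 as the mean of its 2 probe sets. Myl3 was also higher in T cell than in B cell lines, by 2.61 (adjusted p = 0.00059).

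The Notch ligand Dll1 measured 10.30, 10.74 and 10.75 in SMP lines and 7.19, 7.40 and 8.0 in granulocyte lines, a difference of 3.07 ± 0.44 (adjusted p = 1.3e-05). Dner, a transmembrane protein with Delta-like repeats, differed by 2.89 ± 0.40. Frs3, an adaptor of fibroblast growth factor receptors, differed by 2.83 ± 0.25 (adjusted p = 3.2e-08), and its clones were tight in both groups, at 9.65 to 9.98 and 6.69 to 7.14. Igfbp4, a binding protein of insulin-like growth factors, differed by 2.83 ± 0.34, and all 6 of its probe sets moved the same way. Gata2, a transcription factor of blood progenitors, was higher in the SMP lines, at 9.18 ± 0.28 (SD, n = 3) against 6.57 ± 0.27. The water and glycerol channel Aqp3, the calcium-binding protein S100a13 and the microtubule-binding protein Map4 differed by 3.03, 2.94 and 2.72.

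Rbbp4, a histone-binding subunit of several chromatin complexes, measured 10.12, 10.27 and 9.98 in SMP clones and 7.62, 7.33 and 7.42 in granulocyte clones. The difference was 2.67 ± 0.51 (adjusted p = 0.00039), with no overlap and with little spread inside either group. Granulocyte lines of mouse 2 at passage 4 had a Rbbp4 mean of 9.36, against 7.46 in those of mouse 1.

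**Figure D2:**
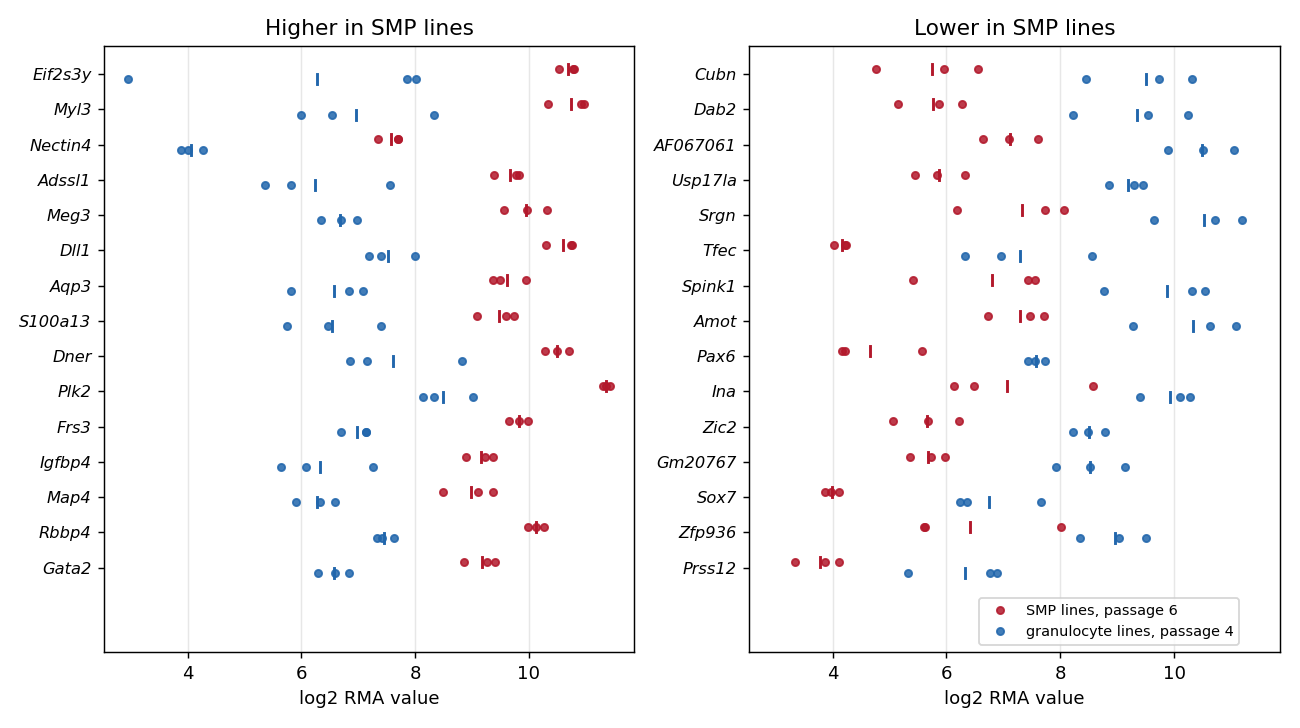
Log2 values of the 15 genes with the largest called, non-overlapping increase (left) and decrease (right) in 3 SMP passage 6 clones (red) and 3 granulocyte passage 4 clones (blue); each point is 1 clone and the bar is the group mean. Genes were chosen to have no overlap between groups. Eif2s3y in granulocyte clone 2 lies at 2.96, far below the other granulocyte clones.

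Among the 15 largest decreases were Cubn, Dab2 and Sox7, members of the endoderm list. Cubn, the endocytic receptor cubilin of absorptive epithelia and visceral endoderm, measured 5.95, 4.76 and 6.55 in SMP clones and 8.46, 10.32 and 9.74 in granulocyte clones. It was lower in SMP lines by a log2 difference of -3.75 ± 0.65 (adjusted p = 0.00013). In granulocyte lines of mouse 2 at passage 4 the Cubn mean was 5.86, near the SMP mean of 5.75. Dab2, the endocytic adaptor of cubilin, measured 5.86, 5.14 and 6.28 in SMP clones and 8.23, 10.25 and 9.55 in granulocyte clones of mouse 1. Its difference was -3.59 ± 0.76 (adjusted p = 0.001). In both genes granulocyte clone 1 was the lowest of its group and SMP clone 2 the lowest of all. The transcription factor Sox7, active in primitive endoderm, was below the lower quartile in all SMP clones, at 3.87 to 4.11, and measured 6.23 to 7.66 in granulocyte clones.

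Of 27 measured endoderm genes, 9 were called lower and 1, Thbd, was called higher, with a median difference of -0.98 against 0.06 over all genes. Besides Cubn, Dab2 and Sox7 the lower ones were Spink1, Foxa1, Gata4, Ttr, Cited1 and Pth1r. Spink1, a protease inhibitor, differed by -3.08 ± 0.69, and the transthyretin gene Ttr differed by -2.03. In lines of many cells a lower signal can come from fewer cells of a type or from less RNA per cell, and these cannot be told apart. The same list held 8 lower genes and 1 higher gene in T cell minus B cell lines of mouse 2 (median -0.94), where 4.8% of all genes were called lower and 10.4% higher. Without granulocyte clone 2 the list had 2 higher members.

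Other large decreases lay outside endoderm. Srgn, the core protein of the secretory granule proteoglycan of blood cells, measured 7.74, 6.18 and 8.07 in SMP clones and 9.65, 11.19 and 10.72 in granulocyte clones. Its difference of -3.19 ± 0.85 (adjusted p = 0.0072) lost its call without SMP clone 2, at an adjusted p of 0.062. The neural regulator Pax6 measured 5.57, 4.16 and 4.22 against 7.74, 7.56 and 7.44, and 4 of its 5 probe sets had the same sign. Its difference was -2.93, but -0.70 as the mean of its probe sets (adjusted p = 0.004). The neuronal filament gene Ina differed by -2.86 ± 0.53 and the transcription factor Zic2 by -2.85 ± 0.53. Amot, a scaffold of the Hippo pathway, differed by -3.03 ± 0.50 (-1.42 as the mean of its probe sets) and the serine protease gene Prss12 by -2.55 ± 0.36. Tfec, AF067061, Gm20767 and Zfp936 completed the 15, with differences from -3.37 to -2.55, together with Usp17la, which is described with its list.

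Eif2s3y had the largest difference of all, and its values were uneven. This Y-linked gene encodes a subunit of translation initiation factor eIF2. It measured 10.79, 10.52 and 10.77 in the SMP clones and 8.02, 2.96 and 7.86 in the granulocyte clones, a difference of 4.42 ± 1.37 (adjusted p = 0.021). Granulocyte clone 2 stood apart from both other clones of its group. The call was lost without that clone (2.76, adjusted p = 0.2), without SMP clone 2 (adjusted p = 0.054) and without SMP clone 3 (adjusted p = 0.062). At passage 16 the granulocyte clones of mouse 1 also spread widely, with clone 2 the lowest, at 4.32. Of the other 10 measured genes on chromosome Y, Uba1y was called, at 5.68 ± 0.33 (SD, n = 3) in SMP lines against 3.47 ± 0.37, a difference of 2.21 ± 0.51 (adjusted p = 0.0024). The other Y-linked genes were not called and differed by -0.09 to 0.29.

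**Figure D3:**
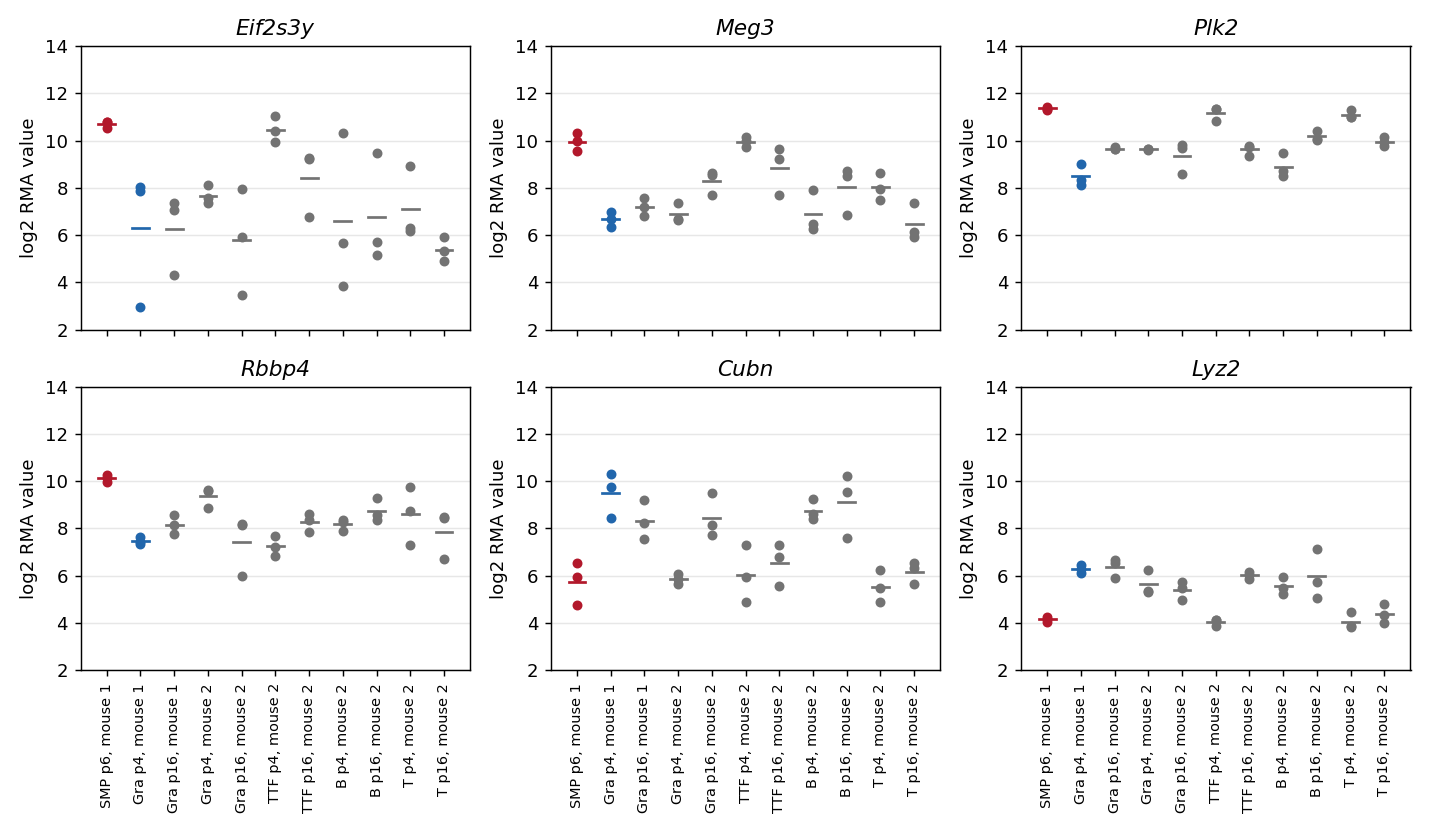
Log2 values of 6 genes on all 33 arrays, by origin (Gra, granulocyte; TTF, tail tip fibroblast; B and T, B and T cell), passage (p) and mouse; each point is 1 clone and the bar the group mean. SMP lines (red) have the highest Plk2, Rbbp4 and Eif2s3y means, and their Lyz2 mean lies with those of TTF and T cell lines at passage 4, below that of the granulocyte lines of mouse 1 (blue).

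The imprinted Dlk1-Dio3 region on chromosome 12 is known as a locus whose maternally expressed RNAs vary among iPSC lines. Meg3, a long non-coding RNA of the region, measured 10.32, 9.57 and 9.96 in SMP clones and 6.98, 6.69 and 6.35 in granulocyte clones. The difference was 3.28 ± 0.49 (adjusted p = 2.6e-05), a 9.69-fold higher signal, and its 4 probe sets had the same sign. As the mean of its probe sets the difference was 2.13. Rian, another maternal RNA of the region, measured 9.37, 8.77 and 8.62 against 7.67, 6.96 and 6.57. Its difference of 1.85 ± 0.65 was called narrowly (adjusted p = 0.042) and was lost when any of 5 clones was left out, with an adjusted p between 0.073 and 0.14. The paternally expressed Dlk1 measured 5.67 ± 0.14 and 5.19 ± 0.10 (SD, n = 3) and was not called (adjusted p = 0.27). Meg3 was not called between T cell and B cell lines (1.15, adjusted p = 0.12), and the SMP minus granulocyte difference was not called as different from that one. Among 18 other imprinted genes measured, 2 were higher and 4 were lower. Peg3 was lower at 6.67 ± 0.25 against 8.48 ± 0.06 and Grb10 at 10.01 ± 0.36 against 11.49 ± 0.13 (-0.74 as the mean of its probe sets), whereas Sgce and Ascl2 were higher by 1.34 and 1.25.

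Genes that mark muscle precursors showed no common direction. Of 21 measured members, 5 were higher and 3 lower (38.1% called, against 21.7% of all genes), with a median of 0.19. T cell minus B cell lines had 3 higher and 3 lower. Pax7, the defining factor of satellite cells, measured 3.46, 3.24 and 3.55 in SMP clones and 3.27, 3.25 and 3.12 in granulocyte clones. Myf5, an early myogenic factor, measured 2.70 to 2.91 and 2.72 to 2.92. Both were below the lower quartile on all arrays of both groups and neither was called (adjusted p = 0.42 and 0.97). The myogenic factor Myod1 had means of 5.64 and 5.06 and was not called (adjusted p = 0.13).

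The largest called member was Sdc4, a heparan sulphate proteoglycan of satellite and many other cells, at 12.25, 12.34 and 12.19 in SMP lines and 9.77, 9.68 and 10.97 in granulocyte lines. Its difference was 2.12 ± 0.47 (adjusted p = 0.0015). The muscle filament gene Des differed by 1.16 ± 0.20 and the adhesion molecule gene Vcam1 by 0.93 ± 0.18. Ncam1 (-1.74 ± 0.26) and Msc (-1.60 ± 0.29) were lower, so known satellite cell genes moved both ways. In Ncam1 4 of 6 probe sets had that sign. As the mean of probe sets Ncam1 differed by -0.52 and Des by 0.59, both still called. Itgb1, a surface integrin used to sort these cells, was not called (adjusted p = 0.67), and 1 of its 5 probe sets had the sign of the difference. Of the 21 members, 9 lay below the lower quartile on all 6 arrays.

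Among 25 contractile genes, 4 were higher and 2 lower (24.0% called, against 21.7% of all genes), with a median of 0.05. T cell minus B cell lines had 4 higher and 1 lower. Beside Myl3, skeletal actin Acta1 measured 7.09, 7.66 and 7.67 against 5.48, 5.20 and 5.96, a difference of 1.93 ± 0.43 (adjusted p = 0.0016). The giant sarcomere protein gene Ttn was lower, by -1.61 ± 0.35. The call of troponin Tnnc1 (1.16 ± 0.39, adjusted p = 0.034) was lost when any of the 6 clones was left out. The count of higher members was 2 without SMP clone 2, SMP clone 3 or granulocyte clone 2, and that of lower members was 1 without SMP clone 3 or granulocyte clone 1.

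Granulocyte genes were mostly dim in both groups. Of 31 measured, 21 lay below the lower quartile on all 6 arrays, 3 were called higher and 1 lower in SMP lines, and the median was 0.11. The azurophil granule genes Mpo (3.56 and 3.51) and Elane (3.60 and 3.49), the integrin gene Itgam (3.80 and 3.62) and the pan-leukocyte marker Ptprc (2.92 and 2.81) had nearly equal SMP and granulocyte means. Lyz2, lysozyme of myeloid cells, was the 1 lower member. It measured 4.25, 4.18 and 4.06 in SMP clones and 6.27, 6.10 and 6.46 in granulocyte clones, a difference of -2.11 ± 0.34 (adjusted p = 6.2e-05), with no overlap. It was also lower in T cell than in B cell lines, by -1.50 (adjusted p = 0.0032).

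Cyba, a subunit of the phagocyte oxidase, was higher in the SMP lines, at 10.20, 10.30 and 10.23 against 7.77, 7.90 and 8.81. The other higher members, Padi4 and Prtn3, lost their calls when single clones were left out, and the count of higher members was then 1 without SMP clone 2, SMP clone 3, granulocyte clone 1 or granulocyte clone 2. Of 18 pan-leukocyte genes, Laptm5 was higher and Lcp1 and Srgn were lower, with 1 lower member without SMP clone 2. As the mean of probe sets Lcp1 differed by -1.13 in place of -1.92, and Laptm5 lost its call, at 0.57 in place of 1.10 (adjusted p = 0.14). The summed linear signal of the 31 granulocyte genes ranged from 1793 to 1908 in SMP lines and from 803 to 1088 in granulocyte lines. Cyba, with log2 means of 10.24 and 8.16, makes up most of the SMP sum and most of the gap between the groups. The mean log2 level of the 31 genes ranged from 4.21 to 4.24 in SMP lines and from 4.03 to 4.15 in granulocyte lines.

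Of 28 measured fibroblast and matrix genes, which feeder cells also express, 13 were called higher and none lower in the SMP lines, with a median of 0.60. This was 46.4% called, against 21.7% of all genes. The other 15 were not called, and Dcn (-0.07) and Pdgfrb (0.03) were among them. Against granulocyte lines of the same mouse at passage 16, 3 were higher and 4 lower, with a median of 0.05, where 6.25% of all genes were called higher and 7.86% lower. Leaving out single clones gave 11 to 14 higher members and 0 lower. Col6a1, a chain of type VI collagen, measured 7.19, 7.30 and 7.49 against 5.57, 4.99 and 4.78, a difference of 2.21 ± 0.29 (adjusted p = 4.8e-06). S100a4, a calcium-binding protein of fibroblasts, differed by 2.00 ± 0.28. Col1a1 measured 9.45, 9.14 and 9.43 against 9.08, 8.09 and 8.07 (adjusted p = 0.015), and was not called without SMP clone 3, granulocyte clone 2 or granulocyte clone 3. Vim, a mesenchymal filament gene, was not called (adjusted p = 0.6). The calls of Col5a1 and Col3a1 were lost when the mean of their probe sets was used, with differences of 0.39 and 0.57 (adjusted p of 0.22 and 0.11).

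The list's summed linear signal ranged from 26973 to 30229 in SMP lines and from 18390 to 21099 in granulocyte lines. Its part in the other differences was not tested. The list also had 12 higher members and none lower in T cell minus B cell lines, and 7 higher and 1 lower in granulocyte lines of mouse 1 at passage 16 against passage 4, where 0.855% of all genes were called higher and 0.288% lower.

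The core pluripotency factors differed little in level. Pou5f1 measured 11.47, 11.48 and 11.33 in SMP clones and 11.66, 11.48 and 11.47 in granulocyte clones, a difference of -0.11 ± 0.13 that was not called (adjusted p = 0.63). Sox2 had means of 11.12 and 11.14, Nanog 11.91 and 12.14, Klf4 11.10 and 11.40 and Esrrb 11.36 and 11.64, and none of them was called. The Klf4 and Esrrb differences were -0.30 ± 0.12 and -0.28 ± 0.13 (limma adjusted p = 0.085 and 0.13), and that of Nanog was -0.23 ± 0.26. Zfp42, Lin28a and Myc were not called either.

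Of 25 measured genes of the pluripotency list, which holds Pou5f1, Sox2 and Nanog too, 10 were called lower in the SMP lines and none higher, with a median of -0.41. The other 15 were not called. Dppa2, a developmental pluripotency-associated gene, measured 10.40, 8.62 and 8.38 against 11.49, 11.37 and 10.92, a difference of -2.13 ± 0.31 (adjusted p = 2.1e-05). SMP clone 1 stood nearest to the granulocyte lines. The same clone was nearest for Gdf3, a ligand of the TGF-beta family (9.22, 8.41 and 8.43 against 10.41, 10.03 and 10.02), and for Jarid2, a cofactor of Polycomb complex PRC2 (10.47, 9.62 and 9.60 against 11.40, 11.26 and 11.02, or a difference of -0.80 in place of -1.33 as the mean of its probe sets). The count of lower members was 6 without SMP clone 2 and 5 without granulocyte clone 1. In T cell minus B cell lines 5 members were lower and 1 was higher.

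Of 12 genes of the primed state, which resembles the post-implantation epiblast, 4 were lower and none higher (33.3% called, median -0.68). They were Zic2, the de novo methyltransferases Dnmt3a (-1.13) and Dnmt3b (-1.38 ± 0.33), and Sall2. Among 16 Nodal and BMP genes, the Nodal inhibitor Lefty1 measured 8.24, 6.62 and 6.72 against 9.44, 9.34 and 9.46, again with SMP clone 1 nearest to the granulocyte lines, while the ligand Bmp7 was higher by 1.65 ± 0.26 (1.01 as the mean of its probe sets). The list had 3 lower members, Lefty1, Id3 and Gdf3. It had 2 higher members, and 1 when any of the 6 clones was left out.

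Transcripts of the 2-cell-like state, a rare state of mouse pluripotent cells that resembles the early embryo, were called lower in 6 of 6 measured, with a median of -1.78. Without granulocyte clone 1 or granulocyte clone 2 the count was 4. Usp17la, a deubiquitinase gene, measured 5.84, 5.45 and 6.33 in SMP clones and 9.45, 9.29 and 8.85 in granulocyte clones, a difference of -3.33 ± 0.43 (adjusted p = 4e-06). Tcstv1 differed by -2.42 ± 0.46, Arg2 by -1.87 ± 0.43 and Zfp352 by -1.69 ± 0.42. The call of Zfp352 was lost without granulocyte clone 1 (-1.30, adjusted p = 0.051). The list has 16 genes, of which the 6 were in the table. They were Tcstv1 and Tcstv3, Usp17la and Usp17lc, Zfp352 and Arg2, so 2 gene families gave most of them. Zscan4c, Zscan4d and Zscan4f were not measured. Both members called in T cell minus B cell lines were lower, with a median over the list of -1.01. Against granulocyte lines of mouse 1 at passage 16, 1 member was called lower and the median was -0.59. The count was 1 where the dimmest 40% of genes were left out, a setting in which dim members were not tested.

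Targets of the tumour suppressor p53 formed the list with the largest share of higher members among lists of more than 3 genes. p53 is a transcription factor that halts the cell cycle or starts apoptosis in damaged cells and that restrains reprogramming. Of 17 measured targets, 12 were called higher and none lower (70.6% called, against 21.7% of all genes), with a median of 0.69. Between 9 and 12 were called higher when single clones were left out. Plk2, a polo-like kinase, measured 11.30, 11.43 and 11.35 against 8.33, 8.13 and 9.02, a difference of 2.87 ± 0.26 (adjusted p = 3.2e-08). Cdkn1a, the cell cycle inhibitor p21, measured 11.02, 11.18 and 10.96 against 9.61, 9.33 and 10, a difference of 1.40 ± 0.21 (adjusted p = 3.2e-05). Bbc3, which encodes the apoptosis inducer PUMA, differed by 1.34 and Phlda3, an inhibitor of Akt, by 1.67 ± 0.25. Mdm2, which encodes the ligase that degrades p53, was not called (0.53, adjusted p = 0.12), nor were Zmat3, Perp, Sesn1 and Aen. In T cell minus B cell lines 8 members were higher and none lower (median 0.31).

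The promoters of Plk2, Cdkn1a and Bbc3 are shown because they are the called members of this list whose window, 250 bases before to 50 after the RefSeq start on build GRCm38.p6, held the core of the p53 response element. The match is in capitals.
Plk2, chr13:110394794-110395093, plus strand: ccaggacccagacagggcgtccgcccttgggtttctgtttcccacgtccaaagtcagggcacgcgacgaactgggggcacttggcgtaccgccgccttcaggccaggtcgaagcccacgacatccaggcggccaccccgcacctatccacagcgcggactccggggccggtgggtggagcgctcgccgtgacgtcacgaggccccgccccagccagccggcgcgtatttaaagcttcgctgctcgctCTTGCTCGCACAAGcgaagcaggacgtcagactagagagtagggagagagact
Cdkn1a, chr17:29090729-29091028, plus strand: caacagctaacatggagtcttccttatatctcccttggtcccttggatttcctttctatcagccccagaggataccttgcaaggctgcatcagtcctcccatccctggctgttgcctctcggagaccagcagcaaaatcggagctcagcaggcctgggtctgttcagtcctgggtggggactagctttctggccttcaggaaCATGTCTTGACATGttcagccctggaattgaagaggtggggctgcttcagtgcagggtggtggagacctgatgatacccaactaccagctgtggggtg
Bbc3, chr7:16309333-16309632, plus strand: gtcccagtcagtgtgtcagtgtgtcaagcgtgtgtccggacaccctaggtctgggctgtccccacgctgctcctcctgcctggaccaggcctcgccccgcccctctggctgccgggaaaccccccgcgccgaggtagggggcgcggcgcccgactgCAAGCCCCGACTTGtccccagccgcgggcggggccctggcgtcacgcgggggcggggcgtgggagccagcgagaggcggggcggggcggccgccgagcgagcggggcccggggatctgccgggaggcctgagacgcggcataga
Of the 17 targets, 12 had a promoter in the table, and 4 of these (33.3%) held the core, the other being Aen, which was not called. The core was present in 12.9% of the promoters of tested genes and 15.2% of all, and in 11.8% of those called higher and 13% of those called lower. This motif was 1 of 8 searched and was chosen for display after the results of all 8 were seen. The single p53 decamer was in 7 of the 12 promoters (9.55% of all), and the complete element of paired decamers in 0 (0.0111% of all). The other motifs were searched with the immediate early genes in view, on both strands, and 14 of these had a promoter. Among those 14, CRE (TGACGTCA) was in 2 (2.03% of all promoters) and its shorter form (TGACG) in 9 (23% of all promoters, 30.9% of those of tested genes, and 33.9% of those called higher and of those called lower). AP-1 (TGACTCA) was in 0 (5.95%), the CArG box in 1 (1.81%) and TATAAA in 3 (15.7%). Matches describe letters in these windows and not binding.

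Immediate early genes, which respond within minutes to growth factors and handling, were higher in part. Of 21 measured, 9 were called higher and none lower (42.9% called, against 21.7% of all genes), with a median of 0.46. Jun measured 9.58, 9.71 and 9.88 against 7.75, 8.15 and 8.71 (1.52 ± 0.30), and Btg2, which is also a p53 target, 9.27, 9.50 and 9.34 against 8.17, 7.75 and 8.48 (1.24 ± 0.26). Egr1 and Junb were not called, with adjusted p of 0.54 and 0.43. Without granulocyte clone 2 the count of higher members was 3, and without granulocyte clone 3 1 member was lower. The T cell minus B cell comparison also held 9 higher members and none lower.

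Epithelial genes were higher in 8 and lower in 2 of 22 measured (45.5% called, against 21.7% of all genes, median 0.57). The keratins Krt7 (2.31 ± 0.43) and Krt19 (1.82 ± 0.31) and the membrane protease gene St14 (1.49 ± 0.24) were among the higher ones. The junction genes Tjp1 and Dsg2 were the lower ones. T cell minus B cell lines had 10 higher and 1 lower. The count of lower members was 1 without SMP clone 2, granulocyte clone 2 or granulocyte clone 3. Germline genes were higher in 6 and lower in 0 of 18 (33.3% called, median 0.38). The X-linked Taf7l, a germ cell TFIID subunit, measured 7.15, 7.70 and 7.29 against 5.21, 4.88 and 5.12, and the synaptonemal complex gene Sycp3 differed by 1.34 ± 0.32. In T cell minus B cell lines 1 germline gene was higher.

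Of 28 replication and mitosis genes 4 were lower and 0 higher (median -0.18). This was 14.3% called, against 21.7% of all genes in either direction and 10.1% called lower, and T cell minus B cell lines also had 4 lower and 0 higher. Tyms, thymidylate synthase, measured 9.45, 8.46 and 8.25 against 11.08, 10.94 and 10.13, a difference of -2.0, but -0.56 as the mean of its probe sets. Gins1, Cdc6 and Ccne1 were lower by differences of -1.17, -1.09 and -1.08. Glycolysis and hypoxia genes moved both ways, with 7 higher and 5 lower of 29 (41.4% called), and with 3 lower without SMP clone 2. T cell minus B cell lines had 6 higher and 3 lower. Adm, a vasodilator peptide induced by low oxygen, differed by 2.12 ± 0.25, hexokinase Hk1 by 1.49 ± 0.21 and the angiogenic factor Vegfa by 1.41 ± 0.25. Among 25 amino acid and stress genes 4 were higher and 4 lower (32.0% called). There were 2 higher members without granulocyte clone 1, and 2 lower ones without SMP clone 2 or granulocyte clone 2. T cell minus B cell lines had 7 higher and 1 lower. The stress factor Ddit3 measured 9.87, 10.07 and 10.18 against 8.08, 7.72 and 8.51, while the arginine transporter gene Slc7a3 differed by -2.02 ± 0.31.

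Mesoderm regulators were called higher in 5 and lower in 3 of 24 (median 0.04), with Mesp2 (1.31 ± 0.25) higher and Lhx1 (-1.70 ± 0.36) lower. The higher count was 3 without granulocyte clone 1, and the lower count was 1 without SMP clone 2, SMP clone 3 or granulocyte clone 2. The remaining lists stayed near or below the share called over all genes. Of 32 Hox genes 1 was higher, of 19 neural genes 1 was higher and 2 lower, and of 20 interferon-response genes 1 was lower. Of 30 oxidative phosphorylation genes 3 were higher and 1 lower, of 26 ribosomal protein genes 1 was higher, of 16 cholesterol genes 1 was higher and 1 lower, and of 8 antigen presentation genes 1, Psmb9, was higher (1.73, or 0.56 as the mean of its probe sets). Leaving out single clones took the single called members of the neural (higher), interferon, ribosomal protein and cholesterol lists and the lower oxidative phosphorylation member to 0. For each clone at least one of these counts went to 0, and the lower neural count was 1 without SMP clone 3 or granulocyte clone 1. Xist, which coats and silences the inactive X, measured 6.51 ± 0.24 and 7.35 ± 0.41 (SD, n = 3), a difference of -0.84 ± 0.28 whose call (adjusted p = 0.034) was lost without SMP clone 2, SMP clone 3, granulocyte clone 1 or granulocyte clone 2. The Xist call was also lost with the granulocyte level interpolated to passage 6, as described below (-0.67, limma adjusted p = 0.067).

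**Figure D4:**
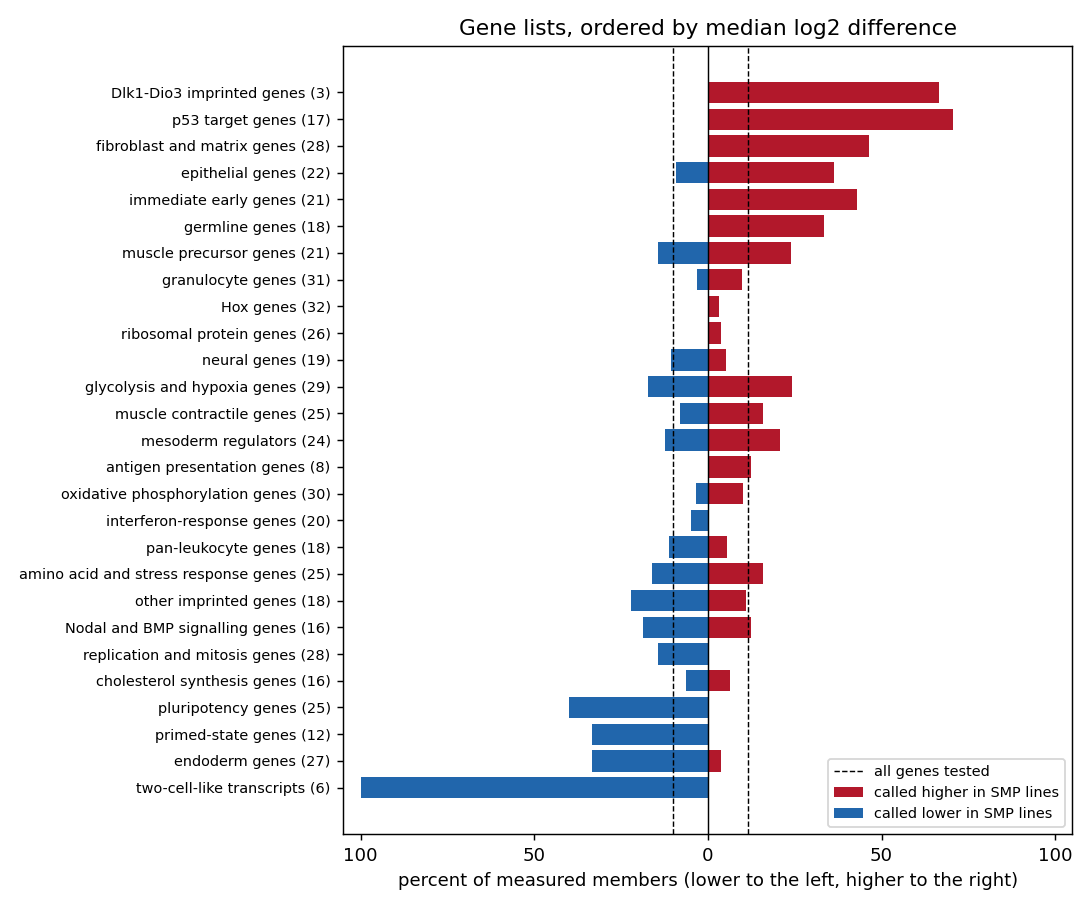
Share of the measured members of 27 gene lists (member number in brackets) called higher in SMP lines (red, to the right) or lower (blue, to the left), ordered by median difference; dashed lines give the shares over all genes, 11.6% and 10.1%. All 6 measured 2-cell-like transcripts are called lower (4 without granulocyte clone 1 or 2) and 12 of 17 p53 targets are higher.

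The unequal passage was examined with granulocyte lines of mouse 1 at passage 16, which carry the same clone numbers as those of passage 4. Between passages 16 and 4 of the granulocyte lines 135 genes were called (1.14%), and leaving out single clones gave 48 to 83 where granulocyte clone 1 or 2 of passage 4 or any clone of passage 16 was left out. With the clone as a fixed block in a fit of the 6 granulocyte arrays of mouse 1 the count was 411, and 332 in the same fit with no block. As a random block over the 33 arrays the clone gave 138, and 2710 for the interpolated comparison below. Between SMP lines and granulocyte lines of passage 16 the count was 1666 (14.1%). It was 771 without SMP clone 2, 961 without SMP clone 3 and 1003 without passage 16 clone 1. These comparisons share arrays with the main one, so their values stand side by side. With the granulocyte level interpolated to passage 6, on the assumption of a linear change per passage, 2711 genes were called (23%). Plk2 differed by 1.16 between the granulocyte passages (adjusted p = 0.018) and Dll1 by 1.87 (adjusted p = 0.027). Meg3 (0.51) and Lyz2 (0.08) were not called there. Granulocyte lines of passage 4 from mouse 2 and mouse 1 differed in 913 genes (7.73%), and in 436 to 570 where granulocyte clone 2 or 3 of mouse 1 or any clone of mouse 2 was left out. In mouse 2, granulocyte clone 3 at passage 16 had the lowest mean correlation with its own group, 0.922, and enters here only through the shared spread. Without it the count between granulocyte passages was 314 and that between mice 1466.

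The T cell minus B cell comparison in mouse 2 at passage 4 shares no array with the main one and was chosen after the likeness of the arrays was seen. It called 1791 genes (15.2%), and 1086 without B cell clone 1 and 1095 without B cell clone 2. Of these, 1290 were also called between SMP and granulocyte lines, 50.4% of the SMP minus granulocyte calls and 72.0% of the T minus B calls, and 1289 of them had the same direction. Over all genes the log2 differences correlated at a Pearson r of 0.82, which is across genes, so it carries no p, and was the highest of 36 pairs of the other groups examined, with T cell minus granulocyte passage 16 of mouse 1 next at 0.713.

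No gene was called in the test of the difference between SMP minus granulocyte and T minus B, with 578 genes at an unadjusted p under 0.05 and a smallest adjusted p of 0.073. Between 0 and 2 genes were called under the alternatives run. Of the 30 genes named by size, 27 were called in T minus B and all 30 had the same sign. Eif2s3y (0.51), Meg3 (1.15) and Rbbp4 (0.41) were the 3 not called there. The 6 genes called between SMP and T cell lines were Gpbp1l1 and Flg, higher in SMP lines by 1.47 and 1.23, and Kat6a, Gli2, Trp73 and Spic, lower by -0.60, -1.04, -1.24 and -1.90.

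**Figure D5:**
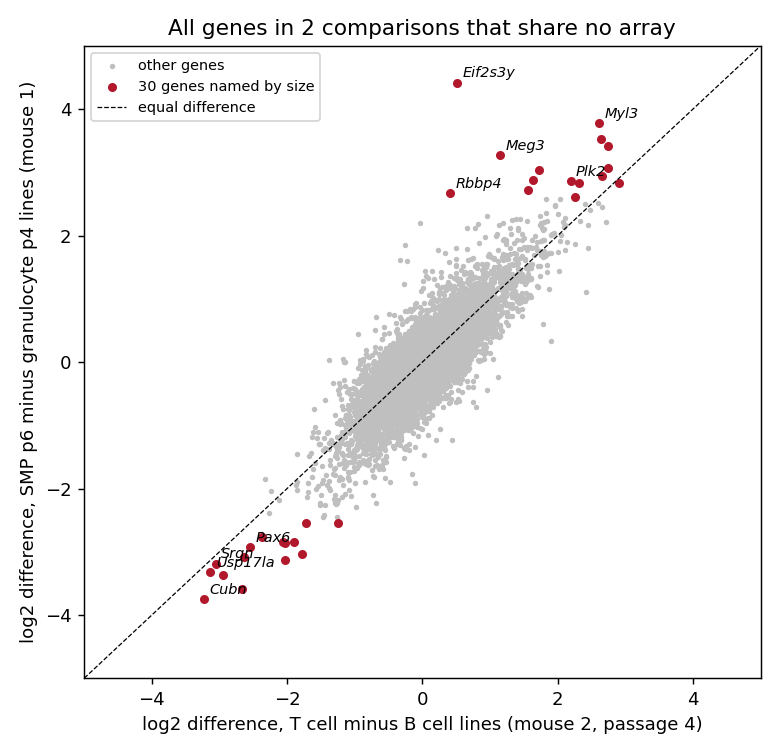
Log2 difference of each gene between T and B cell lines of mouse 2 (x axis) and between SMP and granulocyte lines of mouse 1 (y axis), comparisons that share no array; red points are the 30 genes named by size and the dashed line marks equal differences. The points follow the line with r = 0.82, and Eif2s3y, Meg3 and Rbbp4 lie well above it.

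Tail tip fibroblast (TTF) minus granulocyte lines of mouse 2 at passage 4, another comparison of a solid tissue origin with granulocytes, called 2909 genes (24.6%). Of the genes called there and in SMP minus granulocyte lines, 1086, 910 had the same direction. The shared genes were 42.4% of the SMP minus granulocyte calls and 37.3% of the TTF minus granulocyte calls. The difference between these 2 differences was called in 1461 genes (12.4%), in 954 without SMP clone 2, and in 2227 without the mouse 2 granulocyte clone 3 at passage 16. With the sign counted, SMP minus granulocyte was called as the higher of the 2 differences in 4.75% of all genes and as the lower in 7.62%. The test called 12 of 28 fibroblast and matrix genes, each higher in SMP minus granulocyte lines. It called all 6 measured 2-cell-like transcripts, each lower there, and 10 of 27 endoderm genes, of which 9 were lower and 1 was higher. In TTF minus granulocyte lines themselves, 1843 of all genes were called higher and 1066 lower. Of the 2-cell-like transcripts 5 were higher and 0 lower there (median 1.54), the opposite direction to SMP minus granulocyte lines. The endoderm list held 2 higher and 1 lower (median 0.28), and the fibroblast and matrix list 3 higher and 7 lower (median -0.15). The p53 target list held 11 higher and 0 lower (median 0.69), and the difference between the differences was called in 1 of its genes. Immediate early genes had 10 higher and 2 lower, epithelial genes 10 and 2, and germline genes 7 and 1. Glycolysis and hypoxia genes had 1 higher and 17 lower, and the difference between the differences was higher in 13 and lower in 1.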

How the data were processed

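The values were deposited as RMA-normalized log2 levels per probe set, per the submitters' processing notes; the RMA version and the annotation are not given in the sources used here. The labels describe miRNeasy total RNA and biotinylated cRNA. Of 22690 probe sets, 18003 were paired with 1 gene symbol, 287 with several and 4400 with none; the probe set with the highest mean over 33 arrays stood for its gene, which left 11807 genes and no filter on dim signals. limma 3.58.1 in R 4.3.3 fitted 1 mean for each of 11 groups over all 33 arrays, without a block, and adjusted p-values over all genes. The script was tested on simulated data. Summaries used Python.

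Named genes were the 15 largest called, non-overlapping changes in each direction, up to 4 such genes per list, a preset set of pluripotency, muscle, granulocyte, imprinted and matrix genes, and Y-linked genes added after Eif2s3y was named. Members singled out beside these, and the T minus B comparison, were chosen after their values were seen. The members and lists were chosen with earlier results of these data known. The passage 10 arrays, normalized separately, were not used here. The number of arrays limits the precision. Clone numbers did not pair SMP with granulocyte samples. They pair granulocyte passages 4 and 16 of mouse 1, which come from the same mouse (correlations of deviations of 0.400, 0.174 and 0.179 over 2000 genes). The fits with this clone as a block were added after the data were seen.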

Additional observations from a re-analysis of the deposited data

Results flagged for a closer look

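The difference between SMP and granulocyte lines of mouse 1 was not the same as that between TTF and granulocyte lines of mouse 2, by limma's test of the difference itself, in 1461 genes. Among the 30 genes named by size, 20 passed this test, against 12.4% of all genes. These 30 were picked by the SMP minus granulocyte difference, which is part of the test, so their count is no separate support. With the sign counted, the log2 difference was higher in SMP minus granulocyte lines for Rbbp4 (by 4.79), Myl3 (3.70), S100a13 (3.56), Dll1 (3.40) and Aqp3 (3.40). It was also higher for Gata2 (2.71), Igfbp4 (2.46), Adssl1 (2.44), Map4 (2.37), Nectin4 (1.57) and Plk2 (1.33). It was lower for Usp17la (-6.46), AF067061 (-5.93), Gm20767 (-5.18), Dab2 (-4.14) and Cubn (-3.93), and for Amot (-3.69), Prss12 (-3.37), Tfec (-3.17) and Zfp936 (-2.25). A value of either sign can stand for a larger change between SMP and granulocyte lines or for opposite directions in the 2 comparisons. Cubn had means of 6.05 in TTF and 5.86 in granulocyte lines of mouse 2, and Rbbp4 had 7.24 and 9.36. Both mouse and passage differ between the comparisons along with origin. Leaving out single clones gave 954 to 1394 genes by this test, and the 20 named genes were not followed 1 by 1 in those fits.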

How the results depend on the processing

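The count of 2562 called genes was 4424 in a fit of the 6 arrays, 4500 in a fit of the 9 arrays of mouse 1 and 965 where a log2 difference of at least 1 was also required. Clone numbers did not pair SMP with granulocyte samples (same-number correlations of 0.377, -0.286 and 0.316 over 2000 genes), and the clone number as replicate block in the fit of the 6 arrays gave 4506. Leaving out single clones gave 1671 to 2412. The count against granulocyte passage 16 was 3588 in the fit of 9 arrays and 771 to 1547 without single clones. The count between granulocyte passages was 702 in that fit, 411 with the clone as fixed replicate block in the 6 granulocyte arrays of mouse 1 and 332 there with no block, 314 without the mouse 2 granulocyte clone 3 at passage 16, and 48 to 119 without single clones. Without that array the test against TTF minus granulocyte called 2227 and that between mice 1466. Leaving out single clones gave 954 to 1394 and 436 to 707 there, 1995 to 2673 for TTF minus granulocyte and 1086 to 1642 for T minus B. With every probe set on its own, TTF minus granulocyte gave 4472 and T minus B 2709. The test against T minus B called 1 gene without that array, under quantile normalization, cyclic loess or median centring and without the dimmest 40% of genes, and 0 to 2 without single clones. The cause of these moves was not tested.

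The clone as random replicate block over passages changed no count by over 1.5 times. Of 110 called genes named, 87 kept their call under each of the 19 alternatives in which they were tested. Of 2066 values, which lack 24 of genes among the dimmest, 85 lost the call and 0 changed direction. Direction changed only in genes that were not called. Sox2 was 0.02 under quantile normalization and 0.01 under cyclic loess, and Myf5 was 0.0 at interpolated passage 6. Mpo was -0.03 under quantile normalization and cyclic loess, and Itgb1 -0.02 and Zfy2 0.37 with the mean of probe sets. Without single clones Sox2 ranged from -0.06 to 0.03, Myf5 from -0.08 to 0.05, Myc from -0.89 to 0.12, Ptprc from -0.04 to 0.23, Ssty1 from -0.09 to 0.05, Zfy1 from -0.02 to 0.19 and Zfy2 from -0.15 to 0.06.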

Other observations

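As a check for gain or loss of chromosomes, each array's deviation from the gene medians over 33 arrays was summarised by chromosome over 7084 brighter genes. The chromosome medians of the 6 arrays lay between -0.088 and 0.086 on the log2 scale over 20 chromosomes, and those of the other 27 arrays between -0.35 and 0.29.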
